A study of Mus musculus with 10 samples.

Results

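The genes described here are 8 transcription factors that set intestinal identity and position along the gut, namely Cdx1, Cdx2, Hnf4a, Hnf4g, Gata4, Gata6, Onecut2 and Pdx1, taken by symbol from the 24062 genes counted in each library. The libraries were made from jejunum of C57BL/6 mice at postnatal day 5, with 5 libraries from wild-type animals (WT) and 5 from KSR23 animals. KSR23 mice carry R23, a cassette in the ROSA26 locus that encodes both chains of interleukin-23 behind a floxed STOP signal, together with a cre recombinase under the K14 promoter, which is active in keratinocytes. The cytokine was thus produced mainly in skin, and the jejunum was a tissue at a distance from most of the source. The study describes its controls as littermates, and which single alleles they carried is not given in the sources used here. The comparison asks how expression in the neonatal jejunum differs when IL-23 is made elsewhere in the body.

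CDX1 and CDX2 are caudal-type homeobox proteins that keep gut epithelium intestinal and posterior. HNF4A and HNF4G are nuclear receptors that act together on the absorptive program of enterocytes, while GATA4 and GATA6 are zinc finger proteins, of which GATA4 separates jejunal from ileal enterocytes. ONECUT2 and PDX1 are homeodomain proteins found mainly in the first part of the small intestine, and PDX1 is also a factor of the pancreas.

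In KSR23 jejunum both HNF4 genes were higher, Hnf4a by 2.11-fold and Hnf4g by 2.49-fold, and the 2 groups of libraries did not overlap for either gene. The other 6 factors did not pass the test in either direction. Thus 2 of the 8 factors were called higher and 0 lower by the likelihood ratio test of edgeR (Benjamini-Hochberg adjusted p under 0.05 over all 17632 genes tested), and the quasi-likelihood F test gave the same counts. Over all genes tested, 18.5% were called in either direction, 9.73% upward and 8.76% downward, while the F test called 15.4%, 8.47% and 6.91%. Groups that did not overlap were found for 14.4% of all genes, 7.41% with KSR23 higher. The unadjusted p of Gata6 by the likelihood ratio test was 0.0303, and those of the remaining 5 factors lay between 0.236 and 0.744.

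Hnf4a is annotated with a pair of promoters, and the table of promoters used here, from RefSeq on GRCm38.p6, holds both. They are printed because Hnf4a is one of the 2 factors called, and because the gene counts add transcripts from both starts and do not tell them apart. The upstream window lies at chr2:163506607-163506906 on the plus strand and the downstream window at chr2:163546905-163547204 on the plus strand, each running from 250 bases before to 50 after the start. Capitals mark matches, on either strand, to AGATAA (the GATA motif), TTTATG (the CDX motif) or TTCNNNGAA (the STAT motif).
Hnf4a upstream: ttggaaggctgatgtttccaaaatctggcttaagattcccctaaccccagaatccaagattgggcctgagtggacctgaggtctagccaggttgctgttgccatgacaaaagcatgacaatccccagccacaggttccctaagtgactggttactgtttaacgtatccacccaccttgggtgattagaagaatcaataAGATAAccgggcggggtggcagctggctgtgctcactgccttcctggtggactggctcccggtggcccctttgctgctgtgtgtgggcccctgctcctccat
Hnf4a downstream: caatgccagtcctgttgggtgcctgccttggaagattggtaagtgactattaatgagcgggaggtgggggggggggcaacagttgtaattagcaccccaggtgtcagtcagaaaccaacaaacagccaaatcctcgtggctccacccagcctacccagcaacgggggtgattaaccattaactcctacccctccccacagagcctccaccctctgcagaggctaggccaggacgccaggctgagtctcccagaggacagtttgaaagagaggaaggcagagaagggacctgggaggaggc
The upstream window had 1 match, to the GATA motif, 52 bases before the start. The downstream window had 0 matches, which says only that these letters do not occur in it. Of 32851 promoter windows of the same length, 11.2% held the GATA motif, 11.9% the CDX motif and 8.3% the STAT motif, so such matches were not rare. A match is a run of letters and was not read as a bound site.

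The 8 genes also differ in base composition, from 42.4% G or C in the transcripts of Hnf4g to 62.1% in those of Cdx1, and the libraries differed in their levels of GC-rich transcripts. The first 150 coding bases of Cdx2 and of Hnf4g, from the GENCODE M21 transcripts, are shown with every G and C in capitals to make this contrast visible.
Cdx2: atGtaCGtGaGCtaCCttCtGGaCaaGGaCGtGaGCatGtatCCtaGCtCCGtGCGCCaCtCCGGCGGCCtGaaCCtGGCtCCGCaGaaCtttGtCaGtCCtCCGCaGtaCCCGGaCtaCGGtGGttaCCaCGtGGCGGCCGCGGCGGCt
Hnf4g: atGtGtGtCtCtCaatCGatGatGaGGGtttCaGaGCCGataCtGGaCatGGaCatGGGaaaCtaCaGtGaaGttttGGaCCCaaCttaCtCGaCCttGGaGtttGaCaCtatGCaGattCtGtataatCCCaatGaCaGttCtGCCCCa
The Cdx2 stretch lies in exon 1 at chr5:147306833-147306982 on the minus strand and holds 94 G or C in 150 bases, or 62.7%. The Hnf4g stretch runs over exons 1 and 2 between chr3:3634212-3638072 on the plus strand, with the intron left out, and holds 68, or 45.3%.

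Totals ran from 25.5 to 32 M counts per library in WT and from 31.2 to 60.9 M in KSR23 (M, 1e6; exact permutation test, two-sided, p = 0.0238), and a floor of 3 counts stood for 0.0492 to 0.118 CPM. CPM are counts relative to a library total of 1 M, with totals scaled by TMM factors for the values of genes and unscaled for this floor. For most genes of 1 CPM or more, replicates 4 and 5 took values inside the range of replicates 1 to 3 of the same genotype. They were the highest or lowest of their 5 libraries at 11.3 to 20.4% of genes, against 45 to 71.4% for replicates 1 to 3. The study's text calls the libraries of a group biological replicates, and the labels do not tie them to separate animals. If replicates 4 and 5 are not independent of the others, n = 5 overstates the replication and the p-values are too small. The factors, their ratios and the counts of the gene lists are therefore also given from replicates 1 to 3 alone. Among 335 genes with transcripts over 60% G or C, the median deviation of a library from the mean of all libraries ran from -1.58 in KSR23 replicate 3 and -1.14 in WT replicate 1 to 0.99 in WT replicate 3 on the log2 scale. This range of 2.57 compares with 0.15 for genes of 50 to 55%. A GC score per library, the mean log2 CPM of genes from 60% minus that of genes up to 45%, did not separate the groups (two-sided exact permutation test, p = 0.516). The score was lowest in KSR23 replicate 3, WT replicate 1, KSR23 replicate 5 and WT replicate 5, and the low libraries were thus found in both groups.

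**Figure D1:**
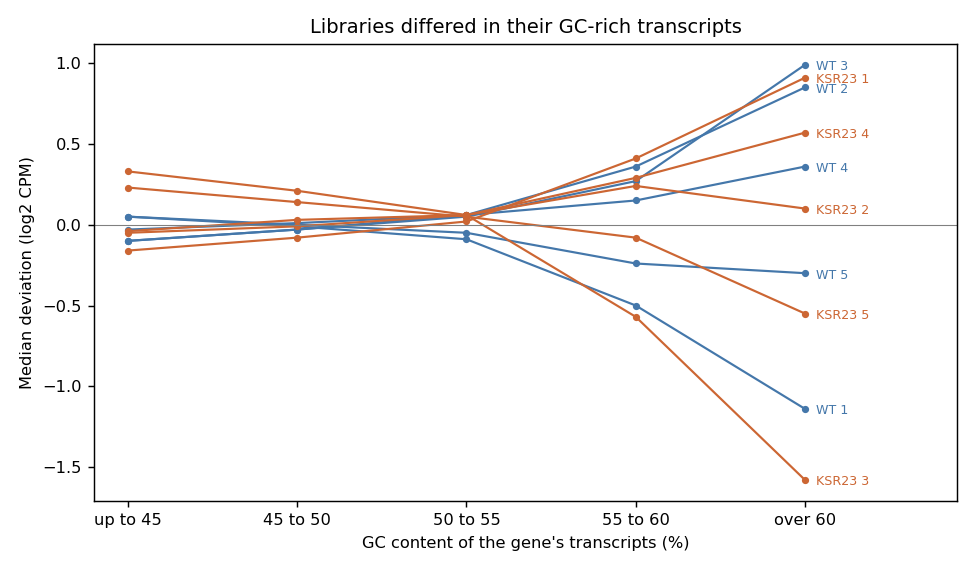
Median deviation of each library from the mean of all 10 libraries (log2 CPM) for genes grouped by the G and C content of their transcripts (%), with WT in blue and KSR23 in orange. The lines lie close together up to 55% and spread to between -1.58 and 0.99 over 60%, with libraries of both groups at either end.

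Per kilobase of annotated exons, Hnf4g was the most abundant of the 8 factors in WT jejunum, at 41.1 ± 9.5 CPM per kb (SD, n = 5). Hnf4a followed with 33.7 ± 8.89, Cdx1 with 23.2 ± 13.9 and Cdx2 with 9.45 ± 6.29 CPM per kb. Gata6 and Gata4 stood at 4.88 ± 0.899 and 4.35 ± 1.26, Onecut2 at 1.76 ± 0.273 and Pdx1 at 1.03 ± 0.873 CPM per kb. Of neighbours in this order only Gata4 and Onecut2 had WT ranges that did not overlap. In KSR23 the order was the same except that Gata4, at 5.52 ± 0.843, came before Gata6, at 3.02 ± 1.07 CPM per kb. In that group Hnf4a (54.2 to 95) did not overlap with Cdx1 (7.02 to 36.5), nor Gata4 (4.54 to 6.66) with Gata6 (2 to 4.49), and all other neighbours overlapped.

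**Figure D2:**
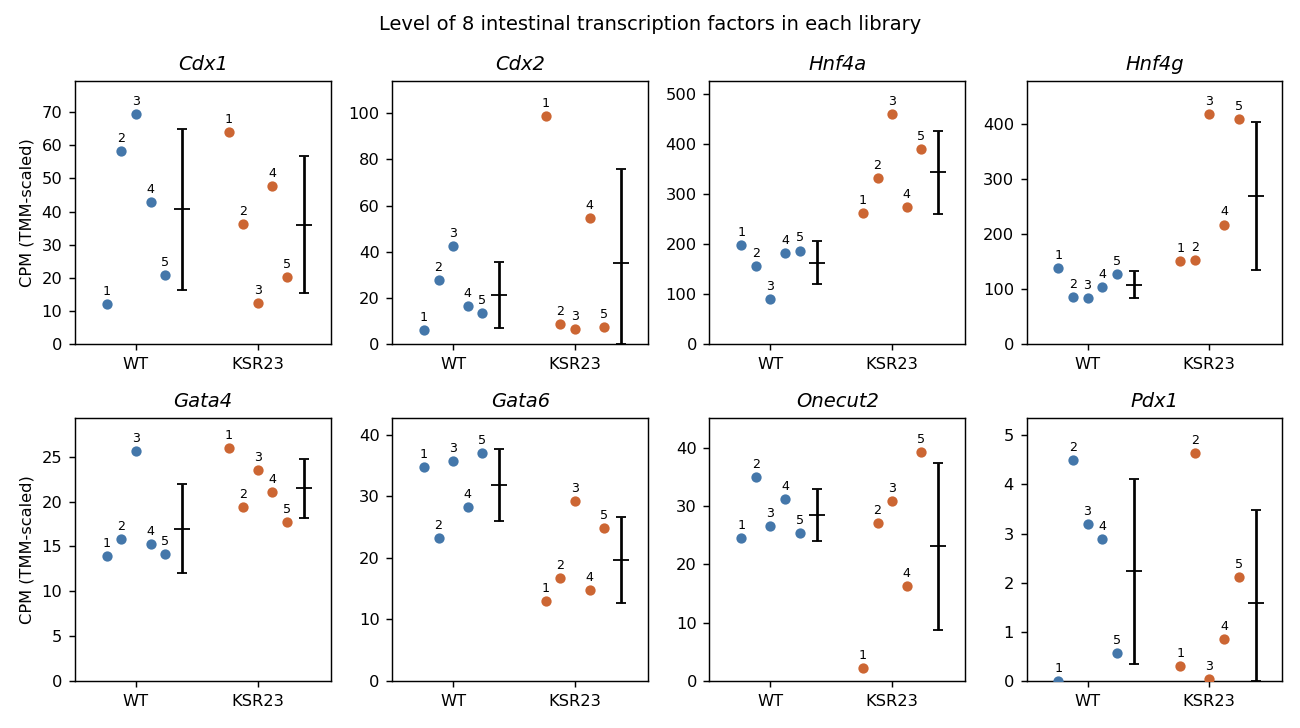
Level of each factor (CPM on TMM-scaled totals, axes from 0) in the 5 WT (blue) and 5 KSR23 (orange) libraries, numbered by replicate, with the mean ± SD of each group in black (cut at 0). The groups are apart for Hnf4a (90.4 to 197 against 262 to 459) and Hnf4g (84.1 to 139 against 151 to 417) and overlap for the other 6 factors.

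Hnf4a (chr2:163506808-163572910, plus strand, GRCm38) encodes the nuclear receptor that is central to enterocyte gene expression. It was counted at 197, 157, 90.4, 182 and 187 CPM in WT replicates 1 to 5, against 262, 332, 459, 273 and 390 CPM in KSR23 replicates 1 to 5. The lowest KSR23 library thus lay above the highest WT library. The means were 163 ± 42.9 and 343 ± 82.4 CPM (SD, n = 5 each), or 1.08 on the log2 scale (SE 0.29), with adjusted p = 0.00281 in the likelihood ratio test of edgeR and 0.0137 in its F test. Within each group the order of the 5 libraries for Hnf4a was the exact reverse of their order in the GC score, although its own transcripts were 54.3% G or C, close to the middle of the range.

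Hnf4g (chr3:3508030-3658052, plus strand), a paralog of Hnf4a that is enriched in gut epithelium, had 139, 85.0, 84.1, 104 and 128 CPM in WT replicates 1 to 5. The KSR23 replicates had 151, 152, 417, 217 and 409 CPM. Every KSR23 library was above every WT library, but KSR23 replicates 1 and 2 stood only just above WT replicate 1, and replicates 3 and 5 were far higher. In WT the order of the libraries for Hnf4g was the exact reverse of the GC score. In KSR23, replicates 3 and 5 were the libraries with the lowest GC scores (-1.81 and -0.89). The means rose from 108 ± 25.0 to 269 ± 134 CPM (SD, n = 5 each), or by 1.31 on the log2 scale (SE 0.36), with adjusted p = 0.00323 and 0.0191 in the same edgeR tests. The log2 ratio of Hnf4g to Hnf4a counts within a library averaged -0.57 ± 0.31 over WT and -0.46 ± 0.49 over KSR23, a difference of 0.10 with p = 0.714 (two-sided exact permutation test over 252 splits, adjusted over 3 ratios 0.714, smallest possible p 0.00794), and from replicates 1 to 3 alone it was -0.19.

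Both HNF4 genes were also fitted with GC content taken into account. With an offset per library fitted to GC content, Hnf4a had a log2 fold change of 1.05 (adjusted p = 0.0137 by the likelihood ratio test of edgeR) and Hnf4g of 1.17 (adjusted p = 0.0026). That offset follows the GC content of the gene, and for genes of 50 to 55%, such as Hnf4a at 54.3%, the libraries ranged over only 0.15. It could thus change little for Hnf4a, whatever its order along the GC score. With the GC score as a covariate, the log2 fold changes were 0.94 and 1.02, both called, in a fit that called 6651 of all 17632 genes, or 37.7%. Leaving out any 1 library kept both calls, with log2 fold changes of 0.93 to 1.21 for Hnf4a and 1.1 to 1.52 for Hnf4g. From replicates 1 to 3 alone neither was called, with log2 fold changes of 1.28 (adjusted p = 0.195, edgeR) and 1.26 (adjusted p = 0.307), where 579 genes were called in all against 3261 from all libraries.

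Both genes are expressed in epithelium, and in whole tissue more epithelial cells and more RNA per epithelial cell cannot be told apart. The summed level of 8 epithelial markers was 2350 to 5500 CPM in WT and 3260 to 7430 CPM in KSR23, so the groups overlapped. Of the 8 markers 1 was called higher, Cdh1, and 0 lower (0 in either direction by the F test, adjusted p = 0.0572 for Cdh1, edgeR), with a median log2 fold change of 0.32 against 0.03 over all genes. Within WT some markers varied widely, such as Cldn3 with 4.02 to 248 CPM, and others little, such as Krt19 with 715 to 860 CPM. With libraries scaled to these markers, which moved the median of all genes to -0.33, the log2 fold changes were 0.71 for Hnf4a (adjusted p = 0.577, edgeR) and 1.03 for Hnf4g (adjusted p = 0.41), and neither was called. The SE with this scaling were 0.62 for Hnf4a and 0.66 for Hnf4g, against 0.29 and 0.36 with TMM factors. This scaling called 1172 of all 17632 genes, or 6.65%. The F test also called 0 of the 8 factors there, and 0 had an unadjusted p under 0.05 in the likelihood ratio test of edgeR.

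**Figure D3:**
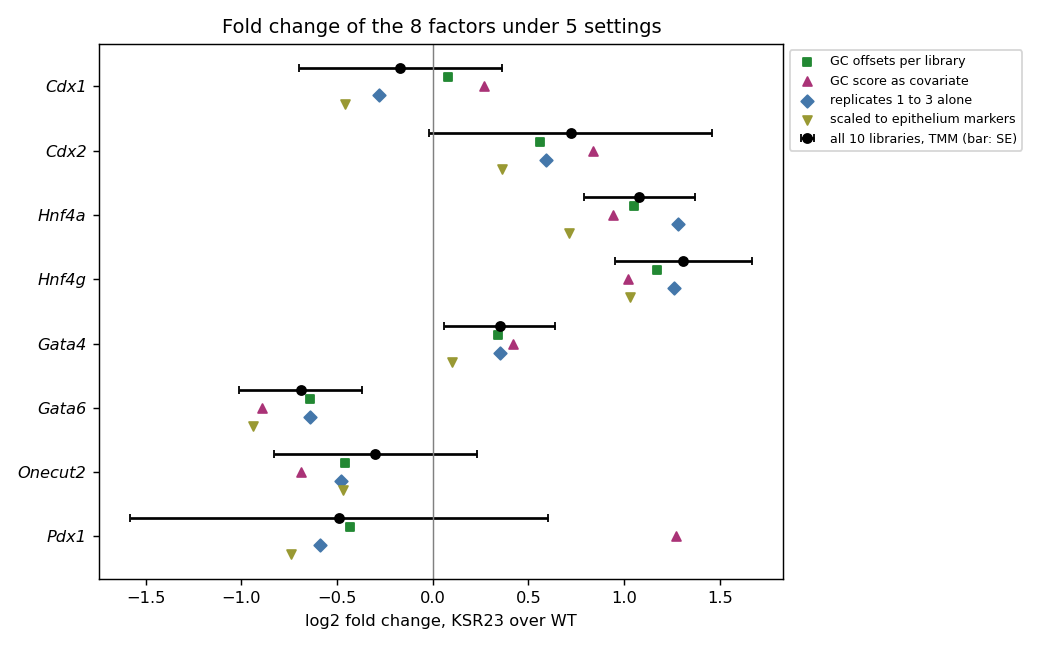
Log2 fold change (KSR23 over WT) of the 8 factors from all 10 libraries with TMM factors (black, bars are SE), with GC offsets, with the GC score as covariate, from replicates 1 to 3 alone and with scaling to epithelium markers. Hnf4a stays between 0.71 and 1.28 and Hnf4g between 1.02 and 1.31 in these settings, while Cdx1 and Pdx1 have values on both sides of 0.

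Gata4 (chr14:63198922-63271692, minus strand), whose product maintains jejunal identity, had 13.9, 15.8, 25.6, 15.3 and 14.2 CPM in WT replicates 1 to 5, whereas the KSR23 libraries had 26.0, 19.4, 23.5, 21.1 and 17.7 CPM. WT replicate 3 was the only WT library that overlapped with the KSR23 range. The log2 fold change of 0.35 (SE 0.29, 95% interval -0.23 to 0.92) did not pass the test, with adjusted p = 0.458 in the likelihood ratio test of edgeR and 0.354 in the F test. Without WT replicate 3 it was 0.54 (adjusted p = 0.206, edgeR).

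Gata6 on chromosome 18, a factor of crypt and villus epithelium and of mesenchyme, went the other way in its values. The 5 WT libraries had 34.7, 23.3, 35.7, 28.2 and 37.0 CPM and the 5 KSR23 libraries 13.0, 16.7, 29.2, 14.7 and 24.8 CPM. KSR23 replicates 3 and 5 lay within the WT range and the other KSR23 libraries were under it. The log2 fold change was -0.69 (SE 0.32, 95% interval -1.32 to -0.07), with adjusted p = 0.119 in the likelihood ratio test of edgeR and 0.102 in the F test. In KSR23 the order of the libraries for Gata6 was the exact reverse of the GC score, and with that score as a covariate Gata6 was called lower (log2 fold change -0.89, adjusted p = 0.000186, edgeR), in the fit that called 37.7% of all genes. With offsets for GC content it was not (-0.64, adjusted p = 0.349), and it was called without KSR23 replicate 3 (-0.88, adjusted p = 0.0244).

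The balance of the pair, which does not depend on the scaling of libraries, differed between the groups at an adjusted p just under the threshold. The log2 ratio of Gata6 to Gata4 counts was 1.32, 0.56, 0.48, 0.88 and 1.39 in WT replicates 1 to 5, against -1, -0.22, 0.31, -0.52 and 0.48 in the KSR23 libraries. The highest KSR23 library equalled the lowest WT library to 2 decimals, and the rest of the KSR23 libraries were lower. The ratio also went with the GC score within each group. It was highest in the libraries lowest in that score, WT replicates 1 and 5 and KSR23 replicates 3 and 5. It was lowest in those highest in the score, WT replicate 3 and KSR23 replicate 1. WT averaged 0.92 ± 0.42 and KSR23 -0.19 ± 0.61 (SD, n = 5 each), a difference of -1.11 with p = 0.0159 in a two-sided exact permutation test (adjusted over 3 ratios, p = 0.0476). The adjusted p of this exact permutation test rose over the threshold without WT replicate 1 (0.119), 2 (0.0714), 4 (0.119) or 5 (0.119) or KSR23 replicate 1 (0.0714), while the difference stayed between -1.20 and -0.91 without any of these libraries. From replicates 1 to 3 alone the difference was -1.09 (exact permutation test, adjusted p = 0.3, where the smallest unadjusted p is 0.1).

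Cdx1 on chromosome 18 encodes the caudal-type factor of crypt and villus. It had 12.0, 58.2, 69.3, 43.0 and 20.8 CPM in WT replicates 1 to 5, against 63.9, 36.2, 12.3, 47.7 and 20.3 CPM in the KSR23 libraries. The spread within each group was more than 5-fold (5.78 in WT and 5.20 in KSR23, highest over lowest) and covered nearly the same range in both. In both groups the order of the libraries was exactly that of the GC score. The log2 fold change was -0.17 (SE 0.53, 95% interval -1.20 to 0.86; adjusted p = 0.87, edgeR), 0.08 with GC offsets and 0.27 with the GC score as a covariate (adjusted p = 0.872 and 0.25, edgeR). Its sign also turned without WT replicate 2 (0.04), WT replicate 3 (0.11) or KSR23 replicate 3 (0.05), so no direction was resolved.

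Cdx2 (chr5:147300805-147307270, minus strand), the master factor of intestinal identity, had the highest coefficients of variation among the 7 factors other than Pdx1, 66.4% in WT and 117% in KSR23. The WT libraries had 6.22, 27.9, 42.7, 16.4 and 13.7 CPM, and the KSR23 libraries 98.6, 8.61, 6.44, 54.4 and 7.57 CPM. In KSR23, replicates 1 and 4 were far above the other 3 libraries, which were at the low end of WT, and the highest was 15.3 times the lowest. The order within each group again matched the GC score exactly. The log2 fold change was 0.72 (SE 0.74, 95% interval -0.74 to 2.18; adjusted p = 0.566, edgeR), and it rested on KSR23 replicate 1, since without it the value was -0.08 (adjusted p = 0.952, edgeR). The interval thus includes 0 as well as differences up to its upper end. The log2 ratio of Cdx2 to Cdx1 counts averaged -0.94 ± 0.31 over WT and -0.72 ± 1.12 over KSR23 (SD, n = 5 each; difference 0.22, exact permutation test, two-sided, p = 0.69, adjusted 0.714), and from replicates 1 to 3 alone the difference was 0.11.

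**Figure D4:**
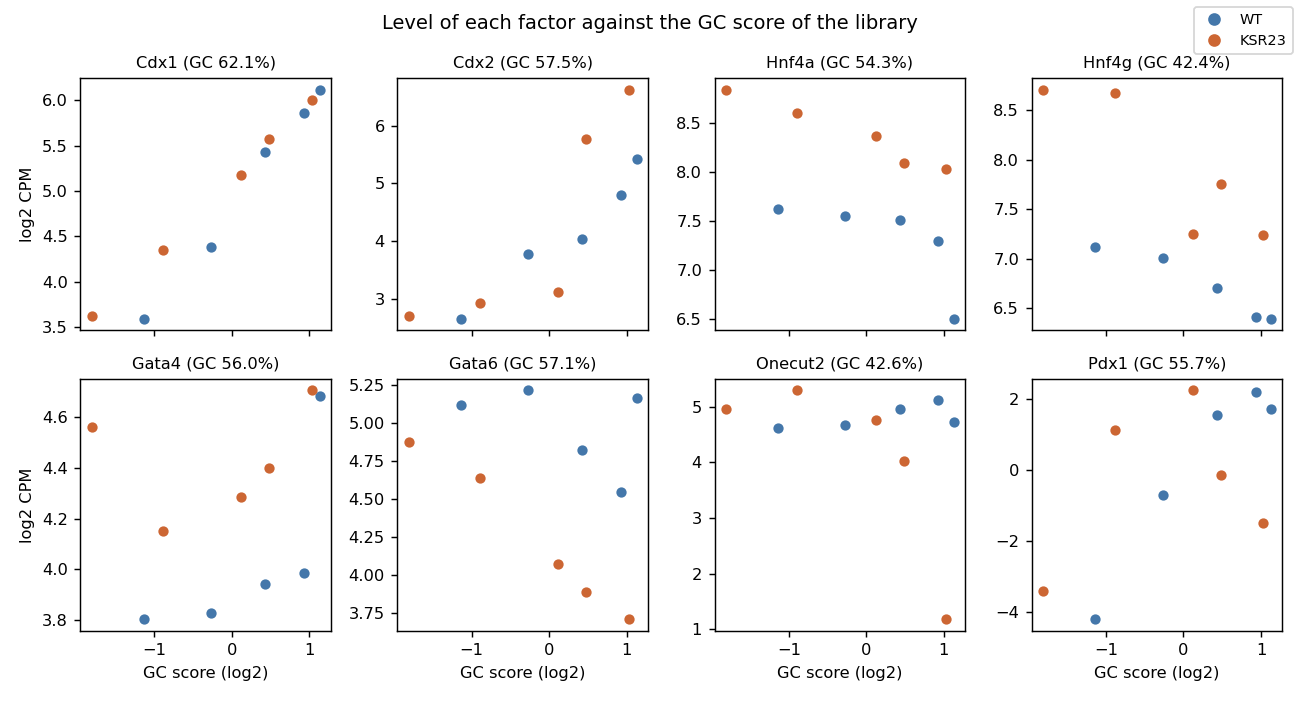
Level of each factor (log2 CPM, prior count 2) against the GC score of the library (log2), with WT in blue and KSR23 in orange and the G and C content of the transcripts over each panel. Cdx1 and Cdx2 climb with the score in both groups, whereas Hnf4a declines with it in both groups with every KSR23 library above every WT library.

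Onecut2 on chromosome 18, a cut-homeobox factor of the proximal intestine, had 24.6, 35.0, 26.5, 31.2 and 25.4 CPM in WT replicates 1 to 5, against 2.20, 27.1, 30.9, 16.3 and 39.2 CPM in the KSR23 libraries. The WT libraries were close together. KSR23 replicate 1 was far below every other library and replicate 4 was next, while the other 3 KSR23 libraries were at WT level or above. The log2 fold change was -0.30 (SE 0.53, 95% interval -1.35 to 0.74; adjusted p = 0.759, edgeR) and 0.04 without KSR23 replicate 1.

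Pdx1 (chr5:147269959-147275848, plus strand), the proximal and pancreatic factor, was the least abundant. In WT it had 0, 4.49, 3.19, 2.88 and 0.563 CPM and in KSR23 0.299, 4.64, 0.0397, 0.85 and 2.12 CPM, from 0 counts in WT replicate 1 and 1 count in KSR23 replicate 3 to 144 counts in KSR23 replicate 2. A count of 0 in WT replicate 1 allows up to 0.0979 CPM at 3 counts. Both groups spanned nearly the whole range, and the libraries lowest in Pdx1, WT replicate 1 and KSR23 replicate 3, were those with the lowest GC scores of their groups. The log2 fold change of -0.49 (SE 1.09, 95% interval -2.61 to 1.64; adjusted p = 0.816, edgeR) became 1.27 with the GC score as a covariate (adjusted p = 0.437, edgeR) and ran from -1.37 without KSR23 replicate 2 to -0.02 without WT replicate 2. Pancreatic acinar markers summed to 74.9 to 116 CPM in WT and 1.01 to 3.33 CPM in KSR23, with 6 of 8 tested called lower (5 by the F test). Of these Sycn, Prss2 and Cela2a had no more than 1 count in any KSR23 library and passed the filter only through WT. Ctrb1 alone made up 73.2 to 94.5 CPM of the WT sums, while the acinar factor Ptf1a was at 0 in every library and Pnlip at no more than 3 counts. Islet markers were at 0.778 to 2.20 and 0.455 to 0.885 CPM. The part of pancreatic RNA in the level of Pdx1 was not tested.

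From replicates 1 to 3 alone 0 of the 8 factors were called by either test of edgeR, and at an unadjusted p under 0.05 in the likelihood ratio test 2 were higher and 0 lower. The log2 fold changes there were -0.28 for Cdx1, 0.59 for Cdx2, 0.35 for Gata4, -0.64 for Gata6, -0.48 for Onecut2 and -0.59 for Pdx1, each with the same sign as from all libraries.

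Of 26 further intestinal transcription factors, 23 were tested, 8 were called higher and 1 lower in KSR23, beside 9.73% and 8.76% over all genes. The median log2 fold change of the 23 was 0.54 against 0.03 over all genes. The genes that rose included Klf4, a zinc finger factor of goblet cell differentiation, from 8.23 ± 1.21 to 25.5 ± 4.21 CPM (SD, n = 5 each; log2 fold change 1.63, adjusted p = 2.75e-07, edgeR). Vdr, the vitamin D receptor, went from 16.2 ± 4.52 to 50 ± 12.6 CPM (1.63, adjusted p = 1.38e-05), and Elf3, an epithelial ETS factor, from 336 ± 28.3 to 961 ± 333 CPM (1.52, adjusted p = 2.42e-06). Prdm1, the repressor that holds back the adult enterocyte program before weaning, rose by 1.13 on the log2 scale (adjusted p = 0.000298), and Foxa3, Ehf and Tcf7l2 rose by 1.31 to 1.55. Gata5, the third GATA factor of the gut, was at 25.5 ± 7.84 and 29.9 ± 17.8 CPM (SD, n = 5 each) and did not pass the test (adjusted p = 0.769, edgeR). With scaling to epithelium markers, and from replicates 1 to 3 alone, 0 of these factors were called higher by either test of edgeR (5 and 8 at an unadjusted p under 0.05), and leaving out any 1 library left 7 or 8.

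**Figure D5:**
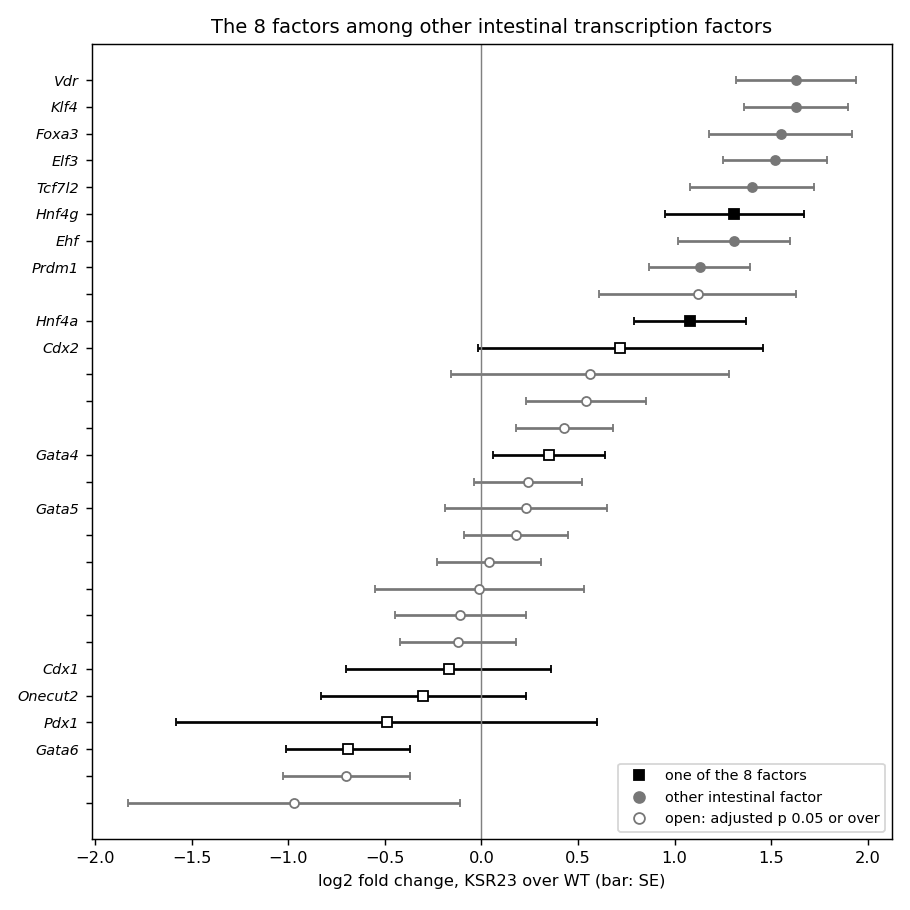
Log2 fold change (KSR23 over WT, bars are SE) of the 8 factors (black squares) and 20 further intestinal transcription factors (grey circles), ordered by value, with filled marks for those called at an adjusted p under 0.05 and with names for the factors given in the text. Of the filled marks Hnf4g at 1.31 follows Tcf7l2 at 1.40, and Hnf4a at 1.08 comes after Prdm1 at 1.13.

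Genes that mark positions along the small intestine were then examined. Of 11 proximal genes 1 was called higher and 5 lower, beside 9.73% and 8.76% over all genes. Their median log2 fold change was -0.81, against 0.03 over all genes. Apoc3, an apolipoprotein gene regulated by HNF4A, fell from 7440 ± 1710 to 1180 ± 608 CPM (SD, n = 5 each; log2 fold change -2.66, adjusted p = 3e-10, edgeR), and Cybrd1, the duodenal ferric reductase, from 28.1 ± 7.01 to 8.60 ± 0.797 CPM (-1.71, adjusted p = 1.75e-07). Fabp1, Lct and Gip fell by 1.01, 0.81 and 0.99, and of these Fabp1 (adjusted p = 0.0822) and Lct (adjusted p = 0.0627) were not called by the quasi-likelihood test. Tmprss15, the enteropeptidase of the duodenum, was at 0.278 ± 0.116 and 12.8 ± 10.1 CPM and was called higher (5.51, adjusted p = 8.03e-05, edgeR). The groups overlapped for it, since KSR23 replicate 1 was at 0, below every WT library, and the other 4 KSR23 libraries ran up to 22.5 CPM. It was not called from replicates 1 to 3 alone (adjusted p = 0.0586), and with at least 5 counts required in every library it was not tested. Of 10 distal genes 1 was called higher and 1 lower, with a median of 0, beside 18.5% called over all genes. Cubn, the cobalamin-intrinsic factor receptor, fell from 50.2 ± 9.98 to 9.50 ± 5.94 CPM (-2.40, adjusted p = 0.000112), though from replicates 1 to 3 alone it was not called (-2.22, adjusted p = 0.151, edgeR). Slc10a2, the ileal bile acid transporter, was called higher from a level of 0.0765 ± 0.117 CPM in WT, though not by the F test (adjusted p = 0.0923, edgeR) nor from replicates 1 to 3 alone (adjusted p = 0.519). The count of proximal genes called lower was 3 without WT replicate 3 and 2 without WT replicate 4 or 5, without KSR23 replicate 1, 2 or 4, or from replicates 1 to 3 alone (0 there by the F test), and 2 proximal genes were called higher without KSR23 replicate 1. The distal call for Slc10a2 was absent without WT replicate 2, 3, 4 or 5 or KSR23 replicate 2, 4 or 5.

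Among 15 known target genes of CDX, HNF4 and GATA factors, 5 were called higher and 3 lower, beside 9.73% and 8.76% over all genes. Their median log2 fold change was 0.54, against 0.03 over all genes. The 5 that rose were Cdh17 and Gucy2c, an intestinal cadherin and a guanylate cyclase under CDX2, Sis, the sucrase-isomaltase that appears at weaning, Krt20, a keratin of mature surface cells, and Muc2, the goblet cell mucin. Cdh17 went from 812 ± 207 to 2280 ± 847 CPM (SD, n = 5 each; log2 fold change 1.49, adjusted p = 6.42e-05, edgeR), and Sis from 2.30 ± 0.539 to 7.99 ± 4.43 CPM (1.79, adjusted p = 0.000467). The 3 that fell were Lct, Apoc3 and Fabp1, which are also on the proximal list. The called targets thus moved in both directions. The list pools targets of CDX, HNF4 and GATA factors, and those of HNF4 were not counted apart. Without WT replicate 1, 4 or 5 or KSR23 replicate 1, 2 or 4, 1 target was called lower in place of 3, while 5 to 7 were called higher in each omission of 1 library. From replicates 1 to 3 alone 2 targets were called higher and 1 lower, and with scaling to epithelium markers 1 higher and 1 lower. By the F test 0 targets were called in either direction from replicates 1 to 3 alone, and 0 with the scaling to epithelium markers. Under that scaling 3 proximal genes were called lower and 1 higher (1 and 1 by the F test). Of the 5 named above Cybrd1 and Apoc3 were among the 3, and the third was Cck (adjusted p = 0.0427, edgeR), which was not called with TMM factors alone (adjusted p = 0.141).

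Genes whose pattern over the 10 libraries was most like that of each factor were taken by Pearson r of log2 CPM among 12889 genes, as a description in which all points share the composition of their libraries. For Hnf4a these were Pcsk7, Acly and Iars (r = 0.996 to 0.997, and 0.987 to 0.990 after centring on the group means), and for Hnf4g Nlrc4, Cd2ap and Mki67 (0.982 to 0.994). Cdx1 was nearest to Rexo1, Nrbf2 and Asnsd1 (0.992 to 0.993) and Cdx2 to Ehd4 and Marcksl1 (0.993 and 0.990). Gata4 was nearest to Uhrf2, Qsox2 and Golph3 (0.909 to 0.938) and Gata6 to Znrd1, Tmem50a and Ndufv3 (0.992 to 0.995). Onecut2 was nearest to Ambp, Plekhs1 and Gdpd2 (0.927 to 0.964), and Pdx1 to Slc44a3, Tubb2b and Gpt (0.960 to 0.977). Between members, Cdx1 and Cdx2 varied together (r = 0.85 over 10 libraries, 0.85 after centring), as did Hnf4a and Hnf4g (0.88, and 0.70 after centring), while Cdx1 ran against Hnf4a (-0.51, and -0.83 after centring).

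Markers of other layers and organs were read alongside. Summed levels overlapped between the groups for smooth muscle (1680 to 3690 CPM in WT and 1770 to 2350 in KSR23), fibroblasts (1110 to 1720 and 1010 to 1490) and immune cells (610 to 715 and 482 to 656), and for neurons and glia (26.1 to 39 and 17.5 to 27). In these lists Acta2 of smooth muscle and Dcn of fibroblasts were called lower and Itgam of myeloid cells higher, of which only Dcn was also called by the F test (adjusted p = 0.0538 for Acta2 and 0.0521 for Itgam, edgeR). The F test called 1 further gene of these lists, the neuronal Uchl1, lower (adjusted p = 0.0404). Stomach markers were at 10.8 to 13.3 CPM in WT and 0.548 to 2.07 in KSR23, and in WT Gkn3 carried most of this (10.3 to 11.9 CPM). Gkn3 was at 0.258 to 1.35 CPM in KSR23, and Tff1 and Muc5ac were at 0 in every library. Colon markers were at 0.979 to 1.84 and 1.90 to 2.87 CPM with Hoxb13 at 0. Their part in the levels of the 8 factors was not tested.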

How the data were processed

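The deposited values were counts per gene symbol, 1 table per library. The authors amplified cDNA from picogram amounts of RNA primed with oligo-dT, made libraries with a transposase kit, and sequenced single-end reads. Per the submitters' processing notes these were mapped to mm10 with TopHat2 2.1.0 and counted with HTSeq 0.6.1p1, and edgeR 3.18.1 is listed. The strand setting is not stated, and reads with several alignments entered no gene. PCR copies were not marked by molecular identifiers, so floors cover counting error only. The study's text calls the libraries of a group biological replicates, but the labels do not tie them to separate animals, so p-values measure the spread between these libraries.

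Groups and replicate numbers came from the sample titles. Counts of all 10 libraries were scaled with TMM factors and fitted with negative binomial models in edgeR 4.0.16 (R 4.3.3) with group as the only term, for the 17632 genes with at least 5 counts in any library. The likelihood ratio test was the main test, as in the study. The script was tested on simulated data. CPM means ± SD used TMM-scaled totals, and log2 CPM a prior count of 2. Positions, exon lengths and GC content came from GENCODE M21, and promoters from RefSeq (GRCm38.p6), where 4 windows of Hnf4a, Cdx2 and Pdx1 were matched by symbol. Ratios of counts (pseudocount 0.5) were compared by exact permutation over all splits. GC offsets (lowess, span 0.3), the GC covariate and the omission of GC-poor libraries were added after seeing the data. Other alternatives were DESeq2 1.42.0, other scalings and filters, and omission of libraries. The named genes were the 8 factors, listed genes, and for each factor the 3 genes with the highest r among those with a mean of 1 CPM or more. The members and the lists were chosen with earlier results of these data known. Numbers did not pair the libraries. Some listed and nearest genes entered the counts and are not reported here by name.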

Additional observations from a re-analysis of the deposited data

Results flagged for a closer look

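One value lay far from the others of its group. Gata4 in WT replicate 3 was at 4.68 log2 CPM, while the next WT library was at 3.99 and the lowest at 3.80, a gap of 0.79 of the range. Of 22 sets of 5 libraries examined (8 factors and 3 ratios in both groups) 1 stood out in this way, and chance would give about 1.1, since about 1 in 20 is expected. This library was also the highest of its group in the GC score.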

How the results depend on the processing

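Hnf4a and Hnf4g were called in 21 of 23 alternatives each and kept their sign in all 23. The exceptions were replicates 1 to 3 alone and scaling to epithelium markers, each with 0 of the 8 factors called higher. Gata6 was called lower in 4 alternatives, which made 1 factor called lower with library totals alone (-0.81), the GC covariate, the omission of the library of each group lowest in GC-rich transcripts (-0.85) and 1 single omission, so that single omissions gave 0 to 1 factors called lower. Sign changes, none of them called, were Cdx1 at 0.08 with GC offsets, 0.27 with the GC covariate and up to 0.11 in single omissions (lowest -0.42), Pdx1 at 1.27 with the GC covariate (-1.37 to -0.02 in single omissions), Cdx2 at -0.12 with the replicate block and -0.08 to 1.13 in single omissions, and Onecut2 at -0.58 to 0.04 in single omissions. The log2 ratio of Gata6 to Gata4 differed by -1.28 to -0.91 in single omissions, -1.09 in replicates 1 to 3, -1.14 without the GC-poorest libraries (adjusted p = 0.171, exact permutation test, where the smallest unadjusted p is 0.0286) and -1.11 with pairs (adjusted p = 0.188, where the smallest unadjusted p of 0.0625 cannot pass the threshold). Hnf4g over Hnf4a differed by -0.19 in replicates 1 to 3 and by -0.03 to 0.27 in single omissions, and Cdx2 over Cdx1 by -0.12 to 0.56 in single omissions. Over the 6 lists of transcription factors, Hox, regional and target genes, 18 genes were called higher and 12 lower, against 2 and 7 with scaling to epithelium markers (where 1172 of all genes were called against 3261), 2 and 3 in replicates 1 to 3, and 14 to 21 higher and 7 to 13 lower in single omissions. The cause of these changes was not tested. Same-numbered libraries deviated together in 3 of 5 pairs only (r of -0.69 to 0.41), so the numbers were not read as pairs, and the replicate block, with 2202 genes called against 3261, changed no call among the 8 factors.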

Other observations

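Factors of the secretory and enteroendocrine lineages summed to 37 to 71.9 CPM in WT and 25.3 to 46.2 CPM in KSR23. Of 14 genes, 2 were called higher and 2 lower, beside 9.73% and 8.76% over all genes. Their median log2 fold change was 0.30, against 0.03 over all genes. Spdef, an ETS factor of goblet and Paneth cells, rose from 4.64 ± 1.07 to 12.5 ± 3.17 CPM (SD, n = 5 each; log2 fold change 1.43, adjusted p = 0.000161, edgeR), and Neurod1, a bHLH factor of enteroendocrine cells, rose by 1.18 (adjusted p = 0.0406), a call that the quasi-likelihood test did not make (adjusted p = 0.0702). Hes1, the Notch effector that represses the secretory fate, fell from 27.1 ± 8.60 to 7.91 ± 1.47 CPM (-1.78, adjusted p = 1.02e-06, edgeR), and Pax4, an endocrine paired factor, fell from 0.957 ± 0.272 to 0.33 ± 0.166 CPM (-1.56, adjusted p = 0.0053). The count called higher was 1 without WT replicate 1, 4 or 5 or KSR23 replicate 2, 4 or 5, and from replicates 1 to 3 alone 0 were called higher and 1 lower, as with scaling to epithelium markers (Spdef, adjusted p = 0.147, and Pax4, 0.0868, edgeR). By the F test 0 were called in either direction from replicates 1 to 3 alone, and 0 with that scaling.

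Of 39 Hox genes, which encode position along the body axis, 26 were tested, 1 was called higher and 3 lower, with a median log2 fold change of -0.47, beside 18.5% called over all genes. Hoxa2 fell from 2.23 ± 1.06 to 0.738 ± 0.109 CPM (SD, n = 5 each; -1.59, adjusted p = 0.000798, edgeR), and Hoxb3 and Hoxd8 fell by 1.06 and 1.43, neither of which the quasi-likelihood test called (adjusted p = 0.0842 and 0.0906). That test called Hoxc5 lower (adjusted p = 0.0483), which the likelihood ratio test did not. Hoxa10 was called higher at 0.0283 ± 0.0633 and 0.389 ± 0.353 CPM, and by the quasi-likelihood test it was not (adjusted p = 0.0821). It had no more than 4 counts in any WT library, so it passed the filter only through the group where it was high. The count called lower was 1 without WT replicate 1, 4 or 5 or KSR23 replicate 4 or 5, and the higher call was absent without WT replicate 1, 3, 4 or 5 or KSR23 replicate 2, 4 or 5. From replicates 1 to 3 alone 0 Hox genes were called by either test of edgeR, and 0 were higher and 1 lower at an unadjusted p under 0.05. With scaling to epithelium markers 0 were called higher and 2 lower, and 0 in either direction by the F test. In all, 11 Hox genes were at 0 in every library.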
